A study of Homo sapiens with 6 samples.

Results

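The genes described here are the integrin receptor subunits and the laminin chains, taken from a table of estimated read counts as every protein-coding gene whose symbol is that of an integrin α or β subunit or of a laminin α, β or γ chain. The rule found 37 of the 30270 genes in the table, 15984 of which were protein-coding. They were 18 integrin α, 7 integrin β and 12 laminin genes, the last being 5 α, 4 β and 3 γ chains. The cells were HEK 293T, a human embryonic kidney line that carries the SV40 large T antigen, either wild type (WT, 3 libraries) or with both terminal uridylyltransferases TUT4 and TUT7 deleted (labelled TENT3A/B knockout, here ΔTUT4/7, 3 libraries). Both groups were grown in DMEM with 10% fetal bovine serum and antibiotics, with no further treatment, and total RNA was sequenced after removal of rRNA. The study asked how losing both enzymes alters mRNA levels, and it also followed adhesion of the cells to plastic. Each group was 1 cell line, and the knockout line came from another laboratory, so p-values measure the spread between libraries of these lines, and an effect of the deletion cannot be told apart from other differences between the lines.

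Laminins are trimers of an α, a β and a γ chain that are secreted and polymerise into the sheet of the basement membrane, where nidogen and the heparan sulphate proteoglycans link them to type IV collagen. Integrins are αβ heterodimers in the plasma membrane. The α subunit largely sets the ligand, with α3, α6 and α7 paired with β1 binding the end of the laminin α chain, and the β subunit carries the short tail that talin and kindlin bind inside the cell. Epithelial cells of the kidney make laminins and anchor to them through these receptors.

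The libraries held 18757228 to 33148937 counts, and the 37 genes took 0.167% to 0.173% of them in WT and 0.116% to 0.118% in the libraries labelled ΔTUT4/7. The targeted genes went opposite ways. TUT7 fell from 62.6 ± 2.17 to 26.3 ± 1.04 CPM (counts scaled to library size, mean ± SD, n = 3), whereas TUT4 rose from 211 ± 5.08 to 906 ± 21.4 CPM, against its label. A count summed over the whole gene does not show whether an intact transcript remains, so the group is called by its label throughout. All 9 markers listed for HEK 293T were tested, and they split into 5 higher and 4 lower. Their sum was 955 to 976 CPM in WT and 1515 to 1533 CPM in the libraries labelled ΔTUT4/7, which VIM carried (496 to 1250 CPM). NEFL fell from 352 to 105 CPM, but INA rose from 2.34 to 31.4 CPM. Likewise KRT8 fell from 9.96 to 3.43 CPM, but KRT18 rose from 30.5 to 44.3 CPM. Of 8 leukocyte markers, 5 were in the table, with sums of 6.85 to 9.23 CPM in WT and 3.40 to 4.44 CPM, and CD4 fell from 5.30 to 1.58 CPM. The endothelial, fibroblast and muscle markers in the table summed to at most 0.766, 0.391 and 1.02 CPM in any library. The part of other cell types in the results was not tested. In bulk RNA, fewer cells that express a gene and less RNA of it per cell cannot be told apart.

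Laminin chains fell and the laminin-binding integrin α subunits rose. Of the 37 genes, 32 had more than 12 counts in at least 1 library and were tested, and the 5 that did not were ITGAD, ITGAM, ITGAX, ITGB2 and LAMB4. At a false discovery rate (FDR) under 0.05 in edgeR's quasi-likelihood test, adjusted over all 23952 genes tested, 15 of the 32 were lower, 6 were higher and 11 were not called. Over all genes tested, 29% were called lower, 28.6% higher and 57.7% either way, and over protein-coding genes alone the shares were 31.8%, 37.9% and 69.8%. The groups did not overlap for 25 of the 32, against 62.7% of all genes and 73.3% of protein-coding genes. With a 2-fold minimum, 6 members were lower (LAMA3, LAMC3, LAMA4, ITGA2B, ITGB8 and ITGA11) and 0 were higher, beside 12.4% and 5.9% of all genes and 10.6% and 6.26% of protein-coding genes. The median log2 fold change was -0.84 for the 11 laminin genes tested, with 8 lower and 0 higher, and 0.02 for the 21 integrin genes, with 7 lower and 6 higher. The median over all genes tested was -0.02, and it moved to -0.12 with upper-quartile scaling and to -0.13 with library size alone.

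**Figure D1:**
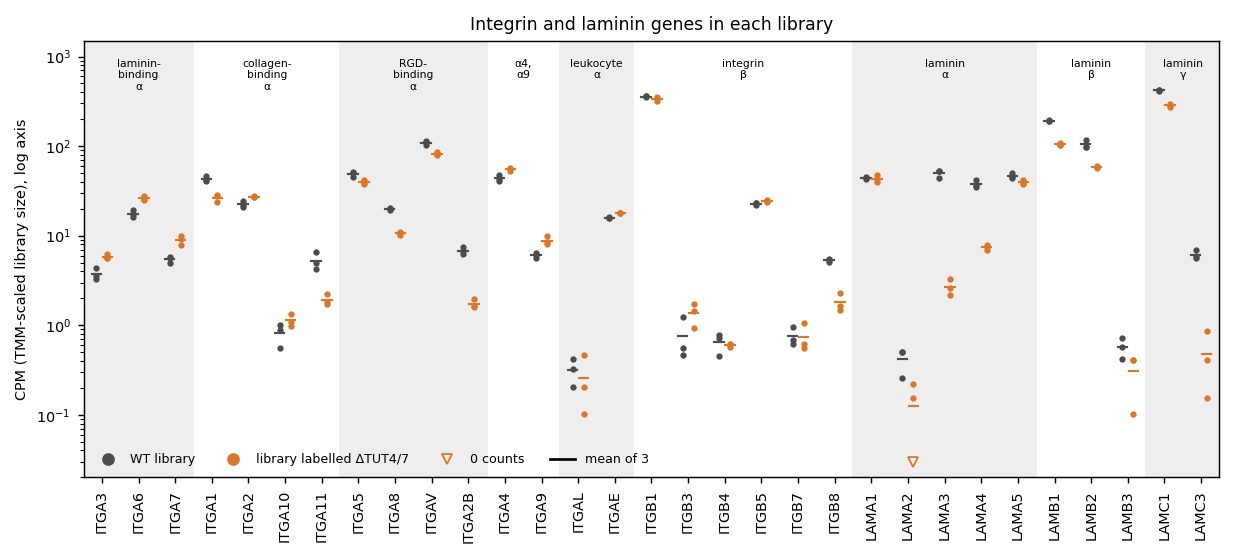
CPM of 31 tested genes in each of the 6 libraries on a log axis, grouped by the role of the subunit or chain, with dots for libraries and a dash for the mean of 3. The LAMA3 dots run from 44.5 to 52.8 CPM in WT and from 2.20 to 3.28 in the libraries labelled ΔTUT4/7, while those of LAMA1 overlap.

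The laminin α chains, which carry the integrin-binding end of the trimer, did not change alike. LAMA3 and LAMA4 fell several-fold, LAMA5 fell by little, and LAMA1 and LAMA2 were not called. LAMA3, the chain of epithelial laminins that anchors epidermis and other epithelia (hg38, chr18:23689453-23956222), held 52.5, 44.5 and 52.8 CPM in WT and 3.28, 2.63 and 2.20 CPM in the libraries labelled ΔTUT4/7. Every knockout-labelled library was far below every WT library. The fall was 18.5-fold, or -4.16 ± 0.12 as log2 fold change with its standard error (adjusted p = 3.9e-16). LAMA4, the chain of vascular, muscle and nerve basement membranes (chr6:112107931-112254939), read 35.2, 36.7 and 41.4 CPM in WT. In the libraries labelled ΔTUT4/7 it read 6.99, 7.42 and 7.87 CPM. That is 5.08-fold lower with no overlap (-2.36 ± 0.09, adjusted p = 4.37e-15). The lncRNA genes that overlap LAMA4 had mean counts of at most 7. Around LAMA3 and LAMA4, the log2 fold changes of the 20 nearest expressed genes had medians of -0.09 and -0.11.

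LAMA1, the chain of the earliest embryonic basement membranes (chr18:6941742-7117797), did not pass the test. Its levels were 44.5, 44.8 and 43.3 CPM in WT and 47.0, 39.5 and 42.9 CPM in the libraries labelled ΔTUT4/7, so that the groups overlapped. The log2 fold change was -0.03 with a 95% interval of -0.17 to 0.11, which excludes a change of the size seen for LAMA4. LAMA5, the widespread chain of mature epithelial basement membranes (chr20:62307955-62367312), fell by little, from 50.2, 44.1 and 45.7 CPM to 42.3, 38.6 and 37.7 CPM (-0.23 ± 0.07, adjusted p = 0.00474). The 2 groups did not overlap, but the lowest WT library stood close to the highest knockout-labelled one. LAMA5 lies in a part of chromosome 20 where the log2 fold changes of the 20 nearest expressed genes had a median of 0.72. Of these 20 values, 0 were below 0. ADRM1, a proteasome subunit gene on the opposite strand that overlaps LAMA5 by position, went from a mean of 592 to 1552 counts. The strand setting of the counting was not stated, and the part of ADRM1 reads in the LAMA5 count was not tested. LAMA2, the chain of muscle laminin, had 10, 13 and 8 counts in WT and 7, 3 and 0 in the libraries labelled ΔTUT4/7, and its log2 fold change of -1.57 (95% interval -3.03 to -0.11) was not called (adjusted p = 0.0618). LAMA2 was called lower without WT replicate 3 (-1.85) and without ΔTUT4/7 replicate 1 (-2.35). It was not called without WT replicate 1 (-1.43), ΔTUT4/7 replicate 2 (-1.64) or ΔTUT4/7 replicate 3 (-1.09). Without WT replicate 2, whose 13 counts alone passed the count filter, LAMA2 was not tested, so its testing rests on that library.

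Among β chains, LAMB1 and LAMB2 fell by nearly the same amount. LAMB1, which pairs with LAMC1 in most embryonic laminins (chr7:107923799-108003213), stood at 189, 191 and 194 CPM in WT and at 107, 104 and 104 CPM in the libraries labelled ΔTUT4/7. LAMB2, the β chain of the kidney filter and of the neuromuscular junction (chr3:49121114-49133118), stood at 118, 98.3 and 98.2 CPM in WT against 59.1, 57.0 and 59.5 CPM. Both pairs of groups were wide apart relative to their spread. The falls were 1.82-fold for LAMB1 (-0.87 ± 0.04, adjusted p = 4.08e-13) and 1.79-fold for LAMB2 (-0.84 ± 0.07, adjusted p = 3.54e-09). DLD, an enzyme subunit gene that overlaps LAMB1 on the opposite strand, had mean counts of 3422 and 2643, and its part in the LAMB1 count was not tested. LAMB3, the β partner of LAMA3 in epidermal laminin, held at most 15 counts in any library, and its log2 fold change of -0.81 (95% interval -1.87 to 0.24) was not called. LAMB4 had at most 6 counts in a library and was not tested.

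The γ chains LAMC1 and LAMC3 were lower. LAMC1, the γ chain of most laminins and the laminin gene with the most counts here (chr1:183023420-183145592), went from 423, 418 and 416 CPM to 285, 274 and 293 CPM. The groups did not overlap, and the change was 1.47-fold (-0.56 ± 0.04, adjusted p = 2.64e-10). LAMC3, a γ chain of brain, retina and other tissues (chr9:131009174-131094473), had 111, 179 and 181 counts in WT but 28, 3 and 8 in the libraries labelled ΔTUT4/7. As CPM this was 6.15 ± 0.652 against 0.479 ± 0.365, with a log2 fold change of -3.51 ± 0.31 (adjusted p = 2.22e-07), while the median over its 20 expressed neighbours was 0.32. The size depended on 1 library, since without ΔTUT4/7 replicate 1, which held 28 of the 39 counts of its group, the log2 fold change was -4.42.

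To compare chains with each other, CPM was divided by the length in kilobases of the Ensembl canonical transcript. On this per-length level, the summed α chains fell from 18.6 ± 0.716 to 9.23 ± 0.574 CPM per kb, the summed β chains from 52.5 ± 1.69 to 29.0 ± 0.491, and the summed γ chains from 54.0 ± 0.452 to 36.1 ± 1.203. The α chains were the scarcest of the 3 families in every library. LAMA3 and its known β partner LAMB3 were far from equal in WT, at per-length levels of 4.69 ± 0.441 and 0.142 ± 0.036 CPM per kb. With these canonical lengths, WT cells had 4 α chains at nearly the same share of the α sum. The LAMA3 share depends on the 10651 bases used for it, and which LAMA3 transcript gave the counts was not tested. LAMA1 held 24.7% ± 1.36, LAMA3 25.1% ± 1.47, LAMA4 28.0% ± 2.04 and LAMA5 21.9% ± 1.24 (SD, n = 3). In the libraries labelled ΔTUT4/7, LAMA1 rose to 48.4% ± 1.45 and LAMA5 to 37.5% ± 1.00 of the α sum, while LAMA4 dropped to 11.2% ± 1.21 and LAMA3 to 2.74% ± 0.423. Each of these shares differed between the groups with no overlap, and an exact two-sided permutation of 3 against 3 libraries cannot go below p = 0.1. The shares of LAMA1 and LAMA5 rose as the α sum fell, without a rise in level. LAMA1 stood at 4.59 ± 0.0836 CPM per kb in WT and 4.47 ± 0.387 in the libraries labelled ΔTUT4/7. LAMA5 stood at 4.09 ± 0.274 and 3.46 ± 0.211. The β family kept its makeup, with LAMB1 at 64.7% ± 2.72 in WT and 64.2% ± 0.593 in the libraries labelled ΔTUT4/7, values that overlapped. The order of LAMB1 and LAMB2 depends on the length used: with the merged length of all annotated exons LAMB1 took 40.2% in WT and 39.6% in the other group, although the lack of a difference between groups was the same. LAMC1 made up 97.8% ± 0.0663 of the γ sum in WT and 99.3% ± 0.222 in the libraries labelled ΔTUT4/7.

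**Figure D2:**
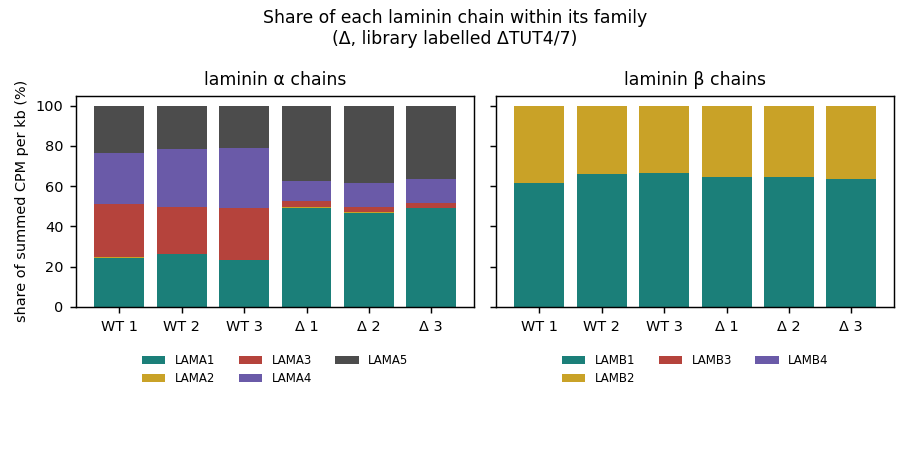
Share of each laminin chain in the summed CPM per kb of its family, in percent, as stacked bars from 0 to 100 for each library, with α and β chains in separate panels. LAMA3 and LAMA4 together take slightly more of each WT bar than LAMA1 and LAMA5, and shrink to 2.74% and 11.2% on average in the libraries labelled ΔTUT4/7, while the β panel looks alike in both groups.

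The starts of 3 members whose levels moved apart are shown for their upstream sequence, since LAMA3 fell most, LAMC1 fell moderately and ITGA6 rose. Each is the 250 bases before a RefSeq start site (GRCh38.p14), 5′ to 3′ on the gene's strand, with matches on either strand to the GC box GGGCGG, the TATA box TATAAA, the AP-1 form TGANTCA (N, any base), the E-box form CACCTG or the box CCAAT in capitals. The LAMA3 window (chr18:23872770-23873019, plus strand) belongs to an internal start that lies 183567 bases after the start of the gene in the table. The LAMC1 window is chr1:183023170-183023419 and the ITGA6 window chr2:172427086-172427335, both on the plus strand.
LAMA3: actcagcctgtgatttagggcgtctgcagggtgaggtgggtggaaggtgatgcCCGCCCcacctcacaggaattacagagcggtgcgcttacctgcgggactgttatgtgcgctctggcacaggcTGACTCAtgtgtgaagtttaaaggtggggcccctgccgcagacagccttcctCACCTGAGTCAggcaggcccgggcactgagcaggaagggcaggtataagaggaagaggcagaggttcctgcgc
LAMC1: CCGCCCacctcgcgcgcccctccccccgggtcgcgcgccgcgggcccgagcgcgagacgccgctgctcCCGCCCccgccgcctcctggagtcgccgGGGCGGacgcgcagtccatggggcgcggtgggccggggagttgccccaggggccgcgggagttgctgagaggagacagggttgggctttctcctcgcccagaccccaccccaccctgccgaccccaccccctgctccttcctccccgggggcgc
ITGA6: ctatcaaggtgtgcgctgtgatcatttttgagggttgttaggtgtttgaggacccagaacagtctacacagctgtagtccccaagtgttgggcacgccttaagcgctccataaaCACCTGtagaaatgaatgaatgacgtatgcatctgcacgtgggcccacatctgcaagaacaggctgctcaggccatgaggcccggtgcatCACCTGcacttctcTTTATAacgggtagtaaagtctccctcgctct
The LAMA3 window holds 2 matches to TGANTCA and the second runs into a CACCTG match. Over all 35114 RefSeq windows of this length, 6.57% hold TGANTCA, and 2 of the 32 windows of 25 members (6.25%) do, a similar share. The other member window with the motif belongs to a LAMB3 start that lies 1051 bases from the start of that gene in the table. The LAMB3 windows of the starts at 0 and 96 bases hold 0 matches to TGANTCA. The LAMC1 window has 3 matches to GGGCGG, the core of an Sp1 site, no match to TATAAA, and a ratio of observed to expected CpG of 0.823 against 0.406 for LAMA3. GGGCGG occurs in 42.6% of all windows and in 17 of the 32. The ITGA6 window shows TATAAA on the opposite strand, which 10.7% of all windows hold, and 2 CACCTG matches. ITGA6 has a second RefSeq start nearby, whose window (not printed) holds 3 GGGCGG matches, 0 matches to TATAAA or CACCTG and a CpG ratio of 0.962, against 0.496 in the printed one. These matches describe the letters of the windows only.

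The laminin-binding integrin α subunits were higher in the libraries labelled ΔTUT4/7, all 3 of them. ITGA6, the α6 receptor for most laminins (chr2:172427354-172506459), read 19.3, 17.4 and 16.2 CPM in WT and 27.5, 24.9 and 25.8 CPM. The lowest knockout-labelled library lay above the highest WT library, and the change was 1.48-fold (0.57 ± 0.08, adjusted p = 4.36e-06). ITGA3, which prefers laminins with the α3 and α5 chains (chr17:50055968-50090481), rose 1.55-fold from 4.38, 3.31 and 3.59 CPM to 5.65, 6.29 and 5.57 CPM (0.64 ± 0.15, adjusted p = 0.00104). ITGA7, the muscle laminin receptor subunit (chr12:55684568-55716043), rose 1.63-fold from 5.65, 4.96 and 5.80 CPM to 9.95, 7.78 and 9.09 CPM (0.72 ± 0.13, adjusted p = 6.95e-05). These genes sit on different chromosomes, and the medians over their 20 expressed neighbours were -0.01, -0.16 and 0.15. All 3 were also called higher with RLE scaling, upper-quartile scaling and library size alone. The genes overlapping ITGA7 on the opposite strand did not rise in mean count, METTL7B going from 125 to 57.7 and BLOC1S1 from 365 to 319. Per length, the sum of the 3 subunits went from 5.13 ± 0.402 to 7.84 ± 0.424 CPM per kb.

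The ratio of receptor to the chain it binds was higher in the libraries labelled ΔTUT4/7 in every pair. The per-library log2 ratio of receptor counts to chain counts was compared for 7 pairs named from textbook binding, with earlier results of these data known. ITGA3, ITGA6 and ITGA7 were called higher and 0 laminin genes were, and the pairs share genes. The direction of the ratios therefore restates the results per gene and adds no separate support. In each pair all 3 libraries labelled ΔTUT4/7 lay above all 3 WT libraries, and each had an exact two-sided permutation p of 0.1, the smallest that 3 against 3 allows, and 0.1 after adjustment over the 7 pairs. For ITGA6 over LAMA1 the ratio rose from -1.33 ± 0.113 to -0.72 ± 0.0537, a shift of 0.60, and for ITGA6 over LAMA5 from -1.40 ± 0.0807 to -0.60 ± 0.0453, a shift of 0.80. ITGA3 over LAMA5 shifted by 0.88 and ITGA7 over LAMA1 by 0.74. In the ITGA7 and ITGA6 pairs with LAMA1 the shift rests on the receptor, since LAMA1 itself was not called. ITGA3 over LAMA3 went from -3.73 ± 0.149 to 1.12 ± 0.296, and the order of the pair turned round. Per length, ITGA3 was below LAMA3 in WT, at 0.769 ± 0.114 against 4.69 ± 0.441 CPM per kb, and above it in the libraries labelled ΔTUT4/7, at 1.19 ± 0.0809 against 0.254 ± 0.051. ITGA7 over LAMA2 shifted by 2.76, with LAMA2 at 0 counts in 1 library, so this value depends on the 0.5 counts added. ITGB1 over LAMC1 moved from -0.23 ± 0.0385 to 0.23 ± 0.118, a shift of 0.47, which rests on the γ chain since ITGB1 was not called.

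**Figure D3:**
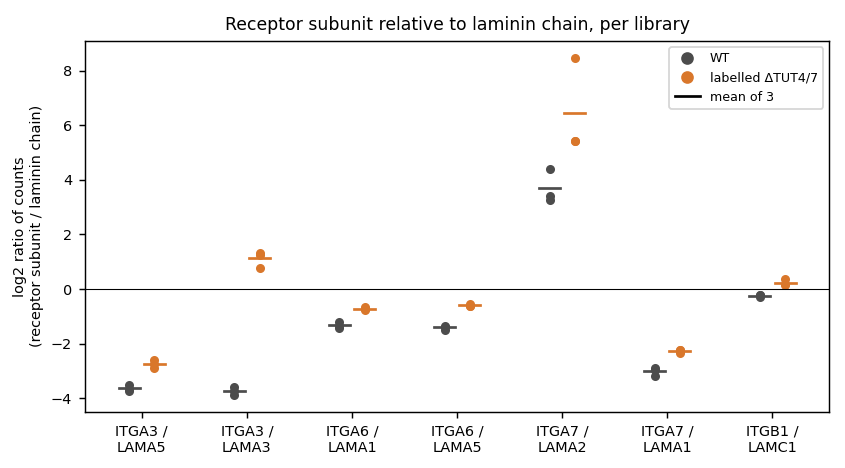
Log2 ratio of receptor subunit to laminin chain counts for 7 pairs in each library, with dots for libraries and a dash for the mean of 3, and the line at 0 marking equal counts. In all 7 pairs the libraries labelled ΔTUT4/7 lie above WT, by 0.47 for ITGB1 over LAMC1 and by 4.85 for ITGA3 over LAMA3.

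The collagen-binding α subunits did not move together. ITGA1, the α1 subunit for type IV collagen (chr5:52787916-52959209), fell from 40.4, 46.0 and 41.9 CPM to 24.0, 27.8 and 28.2 CPM (-0.69 ± 0.07, adjusted p = 6.32e-08). ITGA2, its neighbour on chromosome 5 and the α2 subunit for fibrillar collagen, stood at 24.4, 21.0 and 22.2 CPM and then at 27.2, 27.8 and 26.7 CPM (0.28 ± 0.08, adjusted p = 0.00321). The groups did not overlap for either gene, but the ITGA2 call was lost when counts were scaled by library size alone (0.16, adjusted p = 0.0734). PELO, which lies inside ITGA1 on the same strand, rose from a mean of 604 to 941 counts while ITGA1 fell. How reads were divided between PELO and ITGA1 was not tested. ITGA11, the α11 subunit of mesenchymal cells, was 2.73-fold lower, at 5.24 ± 1.15 against 1.92 ± 0.259 CPM (-1.43 ± 0.20, adjusted p = 1.92e-06). ITGA10, the cartilage collagen receptor subunit, was near 1 CPM in both groups and was not called (0.49, 95% interval -0.15 to 1.14).

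All 4 subunits that recognise the RGD tripeptide of fibronectin, vitronectin and related ligands were lower. ITGAV, the αv subunit and the α gene with the most counts (chr2:186590056-186680901), held 110.5, 115 and 101.9 CPM in WT and 78.8, 82.6 and 85.3 CPM in the libraries labelled ΔTUT4/7 (-0.41 ± 0.05, adjusted p = 1.08e-06). ITGA5, the fibronectin receptor subunit, held 51.9, 45.0 and 50.6 CPM against 41.7, 37.4 and 39.1 CPM (-0.32 ± 0.07, adjusted p = 0.00034). ITGA8, which binds nephronectin in kidney development, fell 1.86-fold from 20.4, 19.2 and 19.6 CPM to 10.6, 11.03 and 10.2 CPM (-0.89 ± 0.09, adjusted p = 2.18e-08). These 3 genes showed no overlap between the groups, with ITGA5 the closest to it. ITGA2B, the platelet fibrinogen receptor subunit (chr17:44372180-44389649), was at 6.67, 6.27 and 7.40 CPM in WT and 1.65, 1.60 and 1.94 CPM, 3.92-fold lower (-1.98 ± 0.17, adjusted p = 1.34e-09). Of 4 platelet markers only 1, GP1BA, was in the table. It was at 13.1 and 13.3 CPM and did not pass the test. Per length, the sum of the RGD-binding subunits fell from 32.0 ± 0.779 to 23.1 ± 0.376 CPM per kb, while that of the laminin-binding subunits rose, as given above.

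ITGA4 and ITGA9, related subunits that bind VCAM-1, fibronectin and tenascin, were both higher. ITGA4 went from 41.3, 47.0 and 42.8 CPM to 52.8, 56.5 and 55.3 CPM (0.32 ± 0.06, adjusted p = 0.000113). ITGA9 went from 5.65, 6.08 and 6.46 CPM to 8.49, 7.99 and 9.96 CPM (0.53 ± 0.13, adjusted p = 0.00105). Neither gene's groups overlapped. Of the leukocyte subunits, ITGAE, which pairs with β7 to bind E-cadherin, was the one with more than trace counts. It read 15.6, 16.0 and 15.7 CPM in WT and 17.8, 18.1 and 18.0 CPM, which did not overlap but missed the threshold (0.19, 95% interval 0.01 to 0.36, adjusted p = 0.0619). HASPIN, a kinase gene inside ITGAE on the opposite strand, had mean counts of 958 and 917. ITGAL, ITGAM, ITGAX, ITGAD and ITGB2 had at most 15 counts in a library.

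Among β subunits, ITGB1, the partner of most α subunits and of all laminin-binding ones (chr10:32887273-33005792), was not called in the main test. Its levels were 349, 362 and 358 CPM in WT and 316, 354 and 333 CPM in the libraries labelled ΔTUT4/7, so that 1 knockout-labelled library lay above the lowest WT library. The log2 fold change of -0.09 (95% interval -0.19 to 0.00) had an adjusted p of 0.0955, and it was called lower with upper-quartile scaling (-0.19) and with library size alone (-0.21). ITGB5, a partner of αv, was likewise not called, at 22.6 ± 0.651 and 24.6 ± 0.581 CPM (0.12 ± 0.07, adjusted p = 0.156). ITGB8, the αv partner that presents latent TGF-β, was 2.93-fold lower, at 5.50, 5.11 and 5.32 CPM in WT and 2.31, 1.49 and 1.63 CPM with no overlap (-1.51 ± 0.19, adjusted p = 4.12e-07). ITGB3, the other subunit of the platelet fibrinogen receptor, had 11, 12 and 38 counts in WT and 46, 18 and 34 counts, and its log2 fold change of 0.81 was not called (95% interval 0.07 to 1.55, adjusted p = 0.0572). ITGB4, the hemidesmosome partner of α6, and ITGB7, the partner of α4 and αE, were each under 1.1 CPM in every library and were not called.

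**Figure D4:**
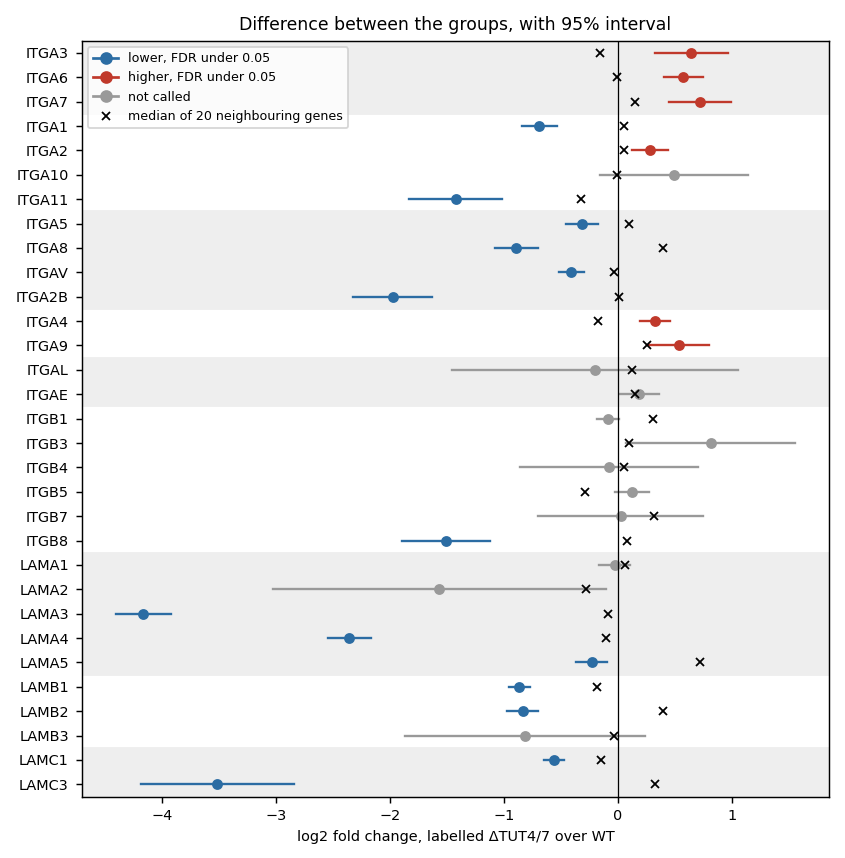
Log2 fold change of 31 tested genes, libraries labelled ΔTUT4/7 over WT, with its 95% interval, coloured by the call at FDR under 0.05, and crosses for the median of the 20 nearest expressed genes. The 3 laminin-binding α subunits at the top lie between 0.57 and 0.72, the laminin chains at the bottom between -4.16 and -0.03, and the cross of LAMA5 at 0.72 is the farthest from 0.

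The study also concerned let-7 microRNAs, which silence mRNAs through sites in the 3′ UTR that pair with bases 2 to 8 of the microRNA. The mature sequence (RefSeq) and a site from each of 4 integrin genes are shown because let-7 was a subject of the study and these are the members that hold a match. The seed is in capitals, and in each 28-base stretch of the 3′ UTR of the canonical transcript (GENCODE 44, hg38) the match CTACCTC is in capitals.
hsa-let-7a-5p: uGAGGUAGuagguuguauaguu
ITGA1 (chr5:52954001-52954007): actcagagtcagcCTACCTCttgactct
ITGA11 (chr15:68299764-68299770): acaagataaattcCTACCTCcgtcagta
ITGB8 (chr7:20411603-20411609): gcacaatatcatgCTACCTCttgaatct
ITGB3 (chr17:47311267-47311273): ttgtatttaccttCTACCTCttggctgc
The match occurred in 4 of the 32 tested members and in 11% of the 14328 3′ UTRs of tested protein-coding genes, shares that lie near each other. ITGA1, ITGA11 and ITGB8 are on the list of members called lower, and ITGB3 was not called. For comparison, 15 of the 32 tested members and 31.8% of tested protein-coding genes were called lower. Whether the match goes with a lower level was not tested. The 3′ UTRs of these 4 genes were between 3539 and 6758 bases long. No laminin 3′ UTR held the match, but several were short, with 418 bases in LAMA3 and 152 in LAMB1, and the difference from the integrins was not tested. None of the matches was followed by an A. MicroRNA binding was not measured in these files.

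Of the other genes around laminins and integrins, basement membrane partners and integrin ligands held more genes called lower than higher, whereas adaptors inside the cell and tetraspanins held more called higher than lower. Over protein-coding genes tested, 37.9% were called higher and 31.8% lower, and the counts below stand beside those shares. Of 15 basement membrane genes tested, 11 were lower and 3 higher, with a median log2 fold change of -0.65. The smallest p-values belonged to the collagen chains COL4A5 (245 to 35.3 CPM, -2.79 ± 0.05) and COL4A6 (109 to 23.0 CPM, -2.25 ± 0.06), a pair of neighbouring genes, while COL4A1 (35.4 to 48.9 CPM, 0.46 ± 0.07) and COL18A1 (13.6 to 26.9 CPM, 0.99 ± 0.08) rose. Among 14 tested ligands of other integrins, 10 were lower and 2 higher (median -0.88). FN1, fibronectin, fell from 166 ± 9.75 to 25.8 ± 1.59 CPM (-2.67 ± 0.06, adjusted p = 1.55e-18), and MFGE8, an RGD ligand of αv integrins, from 114 ± 2.77 to 21.8 ± 0.884 CPM (-2.39 ± 0.06, adjusted p = 3.48e-18). Fibronectin and all 4 RGD-binding subunits were thus lower in the same libraries. TGFB1 (0.86 ± 0.12) and ADAM15 (0.19 ± 0.07) rose.

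Receptors of laminins other than integrins, with the enzymes that glycosylate dystroglycan, had no common direction: 7 of 20 were higher, 9 lower and 4 not called (median -0.09), with the higher share near that of all protein-coding genes. DAG1, dystroglycan, rose from 55.9 ± 3.22 to 132 ± 5.01 CPM (1.24 ± 0.05, adjusted p = 3.01e-14), and RPSA, the ribosomal protein known also as a laminin receptor, from 387 ± 9.45 to 631 ± 3.70 CPM (0.70 ± 0.04, adjusted p = 4.36e-12). SDC4, a syndecan of focal adhesions, fell (-0.71 ± 0.08). Of 30 integrin activators and adhesion adaptors tested, 16 were higher, 5 lower and 9 not called (median 0.22), where 37.9% of protein-coding genes were higher and 31.8% lower. FLNA, filamin A, which binds β tails, rose from 251 to 589 CPM (1.23 ± 0.06), and PXN, paxillin, from 40.6 to 72.3 CPM (0.83 ± 0.06). The kinase gene PTK2B (-1.67 ± 0.15) and the tensin gene TNS3 (-0.72 ± 0.09) fell. Of 10 tetraspanins and other membrane partners of integrins, 8 were higher and 1, CD47 (-0.25 ± 0.05), was lower. The 8 include TSPAN8, which was near the floor, at 0.0278 CPM in WT and 0.241 CPM in the libraries labelled ΔTUT4/7 on average. CD9 went from 8.39 ± 0.523 to 23.0 ± 3.29 CPM (1.44 ± 0.11) and CD81 from 97.7 to 141 CPM (0.53 ± 0.05). The tetraspanin count depends on scaling, with 5 of the 10 higher under upper-quartile scaling and 4 under library size alone.

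**Figure D5:**
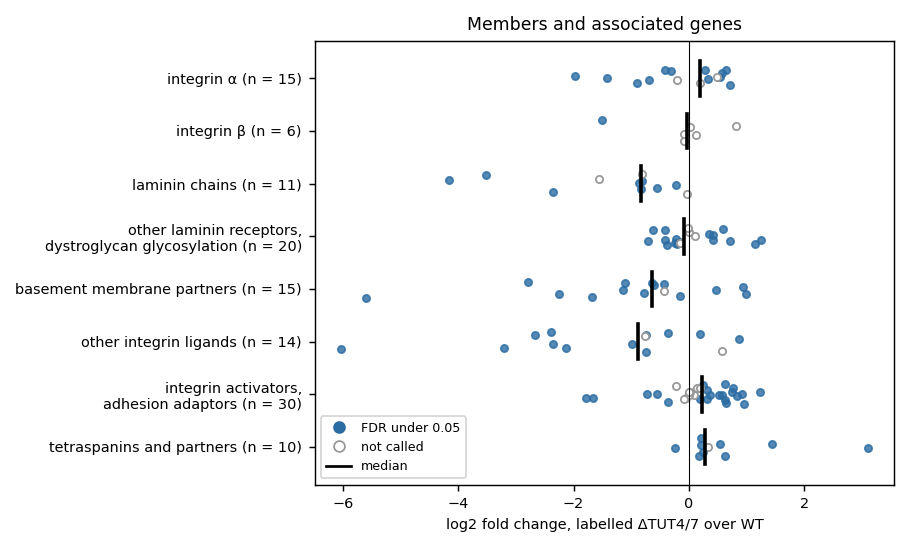
Log2 fold changes, libraries labelled ΔTUT4/7 over WT, of the integrin α, integrin β and laminin genes and of 5 lists of associated genes, with filled dots for genes called at FDR under 0.05, open dots for genes not called, and a bar at the median. The medians of laminins (-0.84), basement membrane partners (-0.65) and other integrin ligands (-0.88) lie below 0, and those of activators and adaptors (0.22) and tetraspanins (0.28) above it.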

How the data were processed

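RNA of 3 WT and 3 ΔTUT4/7 HEK 293T cultures was prepared with the Vazyme VAHTS kit and sequenced as paired-end reads. The authors aligned reads to hg38 with STAR 2.7.3a and quantified Ensembl release 102 genes in Partek 10.0.22. The deposited table holds estimated counts per gene, of which 45.2% to 50.0% per library were not whole, so reads of overlapping or similar genes were shared by a model. The strand setting is not given in the sources used here. A second table, with the authors' own comparison (a p-value and FDR, a linear ratio, a signed fold change and least-squares means as signal), was not used. Per-sample columns left unused numbered 0.

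Counts were rounded, genes with a largest count above 12 were kept (23952 tested, 6318 not), and groups were compared with edgeR 4.0.16 in R 4.3.3 (TMM factors, glmQLFit with robust estimation, glmQLFTest, Benjamini-Hochberg adjustment over all tested genes). All adjusted p-values are from that test unless another is named. Standard errors and 95% intervals come from its F statistic. CPM is relative to the TMM-scaled library size, and per-length levels use canonical transcripts of GENCODE 44. With totals of 18757228 to 33148937 counts, low-count genes are limited by counting, and the fitted biological coefficient of variation was 6.44%. Receptor to chain ratios were taken per library after adding 0.5 counts and compared by exact permutation. The steps were tested on simulated data.

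The named genes were all members, TUT4, TUT7, genes overlapping a member and, from each associated list, the 2 genes called lower and the 2 called higher with the smallest p. Members, lists and pairs were chosen with earlier results of these data known. Alternatives were RLE and upper-quartile factors, library size alone, DESeq2 1.42.0, limma-voom (limma 3.58.1), other count filters, a replicate block, each library left out, other added counts, subtraction of neighbouring genes and, chosen after seeing the data, merged exon lengths. Sequences are from RefSeq tables (GRCh38.p14) and GENCODE 44. Protein sequences were not analysed here, and a few items are not reported here.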

Additional observations from a re-analysis of the deposited data

How the results depend on the processing

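The count of members called lower ran from 15 to 17 and of those called higher from 5 to 7 over all settings. The replicate block gave 16 lower and 7 higher, with a median of -0.32. Same-numbered libraries of the 2 groups had correlations of deviations of 0.05, -0.01 and -0.02, so the numbers do not pair them. The median log2 fold change of the members became -0.39 with library size alone, -0.45 with a largest count above 50, -0.40 with neighbouring genes subtracted and -0.36 to -0.25 with a library left out. Members at least 2-fold higher numbered 0 to 1 with a library left out. Without WT replicate 3 (1.42) or without ΔTUT4/7 replicate 2 (1.01) this was ITGB3, which was also called under the block (0.89) and with limma-voom (0.88). Other integrin ligands called higher numbered 1 with upper-quartile scaling, library size alone or a largest count above 50, and 1 to 2 with a library left out. Tetraspanins and partners called higher numbered 5 with upper-quartile scaling and 4 with library size alone.

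Signs turned only for members that were not called. ITGB7 (0.02) went to -0.075 with upper-quartile scaling, -0.086 with library size alone and -0.019 with the block. With a library left out ITGB7 ran from -0.36 to 0.23, ITGAL from -0.40 to 0.13, ITGB4 from -0.31 to 0.079 and LAMA1 from -0.10 to 0.028. LAMA2 was called lower under 6 settings and ITGB1 under 5, whereas ITGA2 lost its call with library size alone. The cause was not tested. With merged exon lengths, the LAMA1 share was 22.04% in WT and 43.15% in the libraries labelled ΔTUT4/7, and LAMA5 25.8% and 43.9%. The ITGA7 to LAMA2 ratio, LAMB3, ITGAL and LAMA2 are limited by depth, with at most 15 counts of the last 3 in a library.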

Other observations

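Some genes of the associated lists outside the rule for named genes, chosen after their values were seen, are given here. NID1, nidogen 1, which binds the laminin γ1 chain, fell from 236, 227.3 and 254 CPM in WT to 142, 138 and 138 CPM in the libraries labelled ΔTUT4/7 (-0.78 ± 0.05, adjusted p = 8e-12 in edgeR's test). HSPG2, perlecan, fell from 50.3, 45.0 and 52.8 CPM to 17.0, 14.3 and 14.7 CPM (-1.68 ± 0.08). EDIL3, an RGD protein that binds αv integrins, fell from 13.4 to 1.501 CPM on average, and NPNT, nephronectin, the ligand of the α8 subunit that was itself lower, from 4.52 to 0.890 CPM. CDH1, E-cadherin, the ligand of αEβ7, was at 3.94 CPM in WT and 0.0416 CPM in the other group, while the level of ITGAE differed by 0.19 and was not called. Type IV collagen genes moved in both directions within 1 protein family, with COL4A2 going from 54.8 to 104 CPM and COL4A5 from 245 to 35.3 CPM. POMGNT2, an enzyme that acts on dystroglycan, rose with DAG1, from 14.2 to 31.5 CPM (1.15 ± 0.08).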
